A study of Mus musculus with 11 samples.

Results

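The collagen genes, which encode the triple-helical proteins of the extracellular matrix, were followed in the hypothalamus and cerebellum of mice deprived of food overnight. A gene was taken as a collagen gene where its symbol had the form Col, a number, a and a number, and a probe was used where the platform annotation gave it that symbol alone. This rule found 53 probes of 41 genes, out of 21590 probes of 18048 genes with a single symbol. Of these genes, 29 had 1 probe and 12 had 2 probes. All 53 probes matched the RefSeq gene table by Entrez identifier. One further probe, shared by a collagen gene and another gene, was not used.

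The study compared female SV/129 mice, wild-type and 10 weeks old, that either went without food for 16 hours with water available or kept eating chow. RNA of 6 mice went into each of 4 pools, fed and fasted hypothalamus and fed and fasted cerebellum. These pools were labelled with biotin and read with streptavidin Cy5 on single-colour CodeLink whole genome arrays, 3 each for the fed hypothalamus, the fasted hypothalamus and the fed cerebellum, and 2 for the fasted cerebellum, where the submitters discarded 1 array after quality control. The arrays of a group repeat a single pool. They therefore vary by labelling and hybridisation, with no variation from mouse to mouse, and each p-value below compares pools. The submitters' values are ratios to the median fed array of the same region, so every probe has a fed median of 1 in both regions. Levels are therefore not kept. The regions could not be checked by the level of their markers, and no level can be compared between genes or between regions.

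Collagens assemble from 3 chains wound into a triple helix. Fibrillar collagens form the cables that give tissue its tensile strength, and in the brain they lie mainly in the meninges and in the outer wall of larger vessels. Type IV collagens form the sheet-like network of basement membranes, which in the brain surround every blood vessel and line the surface beneath the meninges. The other collagens coat or link fibrils, form beaded filaments or anchoring structures, or span the cell membrane.

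Promoter sequence is shown for Col1a2 and Col3a1, the fibrillar collagen genes with the largest and the smallest change in the fasted hypothalamus, as described below. The stretches are the 150 bases before the start of the RefSeq gene, on the plus strand of GRCm38.p6, at chr6:4505468-4505617 for Col1a2 and chr1:45311388-45311537 for Col3a1. Capitals mark a match to the letters CCAAT (the CCAAT box motif) in the first and to TATAAA (the TATA box motif) in the second.
Col1a2: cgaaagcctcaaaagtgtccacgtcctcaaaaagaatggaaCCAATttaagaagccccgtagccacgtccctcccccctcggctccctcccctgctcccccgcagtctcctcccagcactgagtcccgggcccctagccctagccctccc
Col3a1: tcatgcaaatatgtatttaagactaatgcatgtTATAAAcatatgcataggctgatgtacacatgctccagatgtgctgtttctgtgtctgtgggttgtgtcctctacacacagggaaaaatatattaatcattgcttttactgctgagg

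Windows of 300 bases, from 250 before to 50 after the gene start, were at hand for 33 of the 41 collagen genes, as 36 windows. The letters CCAAT, on either strand, stood in 13 of the 36 windows (36.1%), against 37.4% of all 32851 windows of the same length. The letters TATAAA stood in 5 (13.9%), against 13.6% of all windows. The letters GGGCGG, the core of a GC box, stood in 22 (61.1%), against 35.7% of all windows. A match describes these letters and is not a binding site. Col4a1 and Col4a2, the divergent gene pair that encodes the ubiquitous type IV chains, were the only collagen genes whose windows overlapped. They share 78 bases on opposite strands.

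Across all collagen probes, fasting went with more calls upward in the hypothalamus and more calls downward in the cerebellum. A probe was called at a Benjamini-Hochberg adjusted p under 0.05 in a limma fit over all 34999 probes. In the hypothalamus 15 of the 53 probes were higher in the fasted than in the fed pool and 2 were lower, where 14.2% of all probes were called, 6.34% higher and 7.89% lower. In the cerebellum 2 were higher and 11 were lower, where 20.9% of all probes were called, 9.66% higher and 11.2% lower. The difference of the 2 changes (hypothalamus minus cerebellum) was called positive for 17 probes and negative for 3, where 17.7% of all probes were called, 8.66% positive and 9.01% negative. By gene, 13 collagen genes had a probe that was higher and 2 a probe that was lower in the fasted hypothalamus. In the cerebellum those numbers were 2 and 10. At an unadjusted p under 0.05 by limma, 15.6% of all probes were higher and 16.5% lower in the hypothalamus. In the cerebellum 5657 of the 34999 probes were higher and 5967 lower at that threshold. The difference was then positive for 5525 and negative for 5593.

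These counts are read beside the scaling of the arrays. Ratios were divided by the median of their array. With the 75th percentile in its place, the median change of all probes moved from 0.00 to -0.11 in the hypothalamus and from 0.01 to -0.12 in the cerebellum, on the log2 scale. The deposited ratios lay closer to 1 on fed than on fasted arrays (log2 interquartile range 0.02 to 0.10, against 0.24 to 0.31). A 75th percentile is therefore larger on fasted arrays, and dividing by it lowers all their values beside the fed ones. A rise lost under this scaling cannot be told apart from that shift. The collagen calls then became 6 higher and 5 lower in the hypothalamus, in place of 15 and 2. Of all probes 2.04% were then called higher there and 24.4% lower. In the cerebellum the collagen calls became 1 higher and 19 lower, in place of 2 and 11, where 26.7% of all probes were called lower. The median collagen change in the hypothalamus was 0.06 and turned to -0.04 under that scaling. The count of positive differences stayed at 17. Quantile normalization over all arrays left 0 collagen calls by limma in each comparison. At an unadjusted p under 0.05 it gave 10 collagen probes higher in the hypothalamus (3.3% of all probes), 7 lower in the cerebellum (5.76% of all probes) and 11 with a positive difference (4.3% of all probes).

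The fibrillar collagens (Col1, Col2, Col3, Col5 and Col11) comprised 10 probes of 9 genes. In the fasted hypothalamus 4 of the 10 probes rose and 0 fell by limma at the adjusted threshold, with 6 higher and 0 lower at an unadjusted p under 0.05. In the fasted cerebellum 5 fell and 1 rose. The rises were 40% in the hypothalamus and 10% in the cerebellum, and the falls 0% and 50%. Over all probes the rises were 6.34% and 9.66% and the falls 7.89% and 11.2%. The difference was called positive for 7 (70%, against 8.66% of all probes) and negative for 0. At an unadjusted p under 0.05 it was positive for 8 and negative for 0. The median change over the 10 probes was 0.15 in the hypothalamus and -0.23 in the cerebellum, and the median difference was 0.30, against 0.00, 0.01 and 0.01 over all probes. In such bulk tissue, fewer cells of a type and less RNA per cell cannot be told apart.

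Col1a2, which encodes the second chain of type I collagen, the main collagen of connective tissue, had the widest difference of the fibrillar probes. Its array-scaled ratios were 1.00, 1.03 and 0.907 on the fed hypothalamus arrays and 1.22, 1.31 and 1.20 on the fasted ones. In the cerebellum they were 1.01, 1.00 and 0.908 on the fed arrays and 0.599 and 0.543 on the fasted ones. Every fasted array lay above the fed arrays in the hypothalamus and below them in the cerebellum. The change was 0.35 ± 0.07 (log2 ± SE, a 1.27-fold rise, adjusted p = 0.0141) in the hypothalamus and -0.77 ± 0.08 (1.7-fold lower, adjusted p = 0.000189) in the cerebellum, by limma. The difference between the regions was 1.12 ± 0.10 (adjusted p = 0.000209). The hypothalamic call was lost without the second fasted hypothalamus array (adjusted p = 0.0511).

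Col1a1, the partner chain of type I collagen, moved in the same directions with a smaller change in each region. Its ratios were 1.05, 1.00 and 0.896 on the fed and 1.14, 1.19 and 1.14 on the fasted hypothalamus arrays. In the cerebellum they were 0.991, 1.02 and 1.00 on the fed and 0.691 and 0.678 on the fasted arrays. The groups did not overlap in either region. By limma Col1a1 rose by 0.24 ± 0.06 (adjusted p = 0.028) in the hypothalamus and fell by 0.55 ± 0.06 (adjusted p = 0.000422) in the cerebellum, with a difference of 0.79 ± 0.09 (adjusted p = 0.000486). Its hypothalamic call was lost without the second fed array (adjusted p = 0.0659) or without the first, the second or the third fasted array (0.0539, 0.0883 and 0.0739), and with the 75th percentile as scale (0.0774).

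Col3a1, which encodes type III collagen, the fibrillar partner of type I in vessel walls and soft tissue, fell in the cerebellum and was not called in the hypothalamus. The hypothalamus ratios were 1.00, 1.00 and 0.947 when fed and 0.970, 1.00 and 0.982 when fasted, and the groups overlapped. The cerebellum ratios were 1.00, 1.01 and 0.884 when fed and 0.605 and 0.616 when fasted, and every fasted array was lower. The change was 0.00 ± 0.06 (limma adjusted p = 0.973) in the hypothalamus and -0.66 ± 0.06 (1.58-fold lower, adjusted p = 0.000148) in the cerebellum. The difference was 0.66 ± 0.08 (adjusted p = 0.00108).

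**Figure D1:**
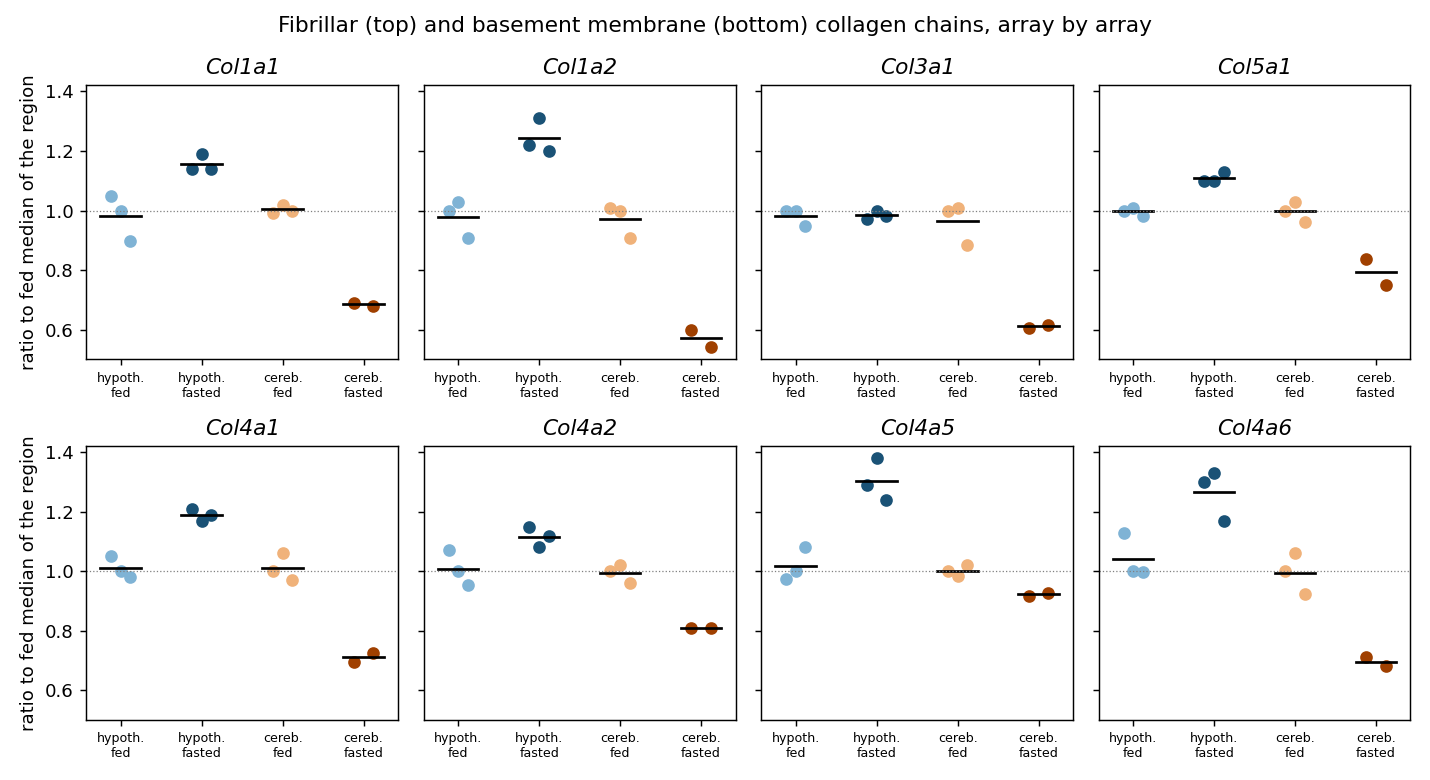
Array-scaled ratio to the fed median of the region (vertical axis, no unit) for 4 fibrillar chains in the upper row and 4 type IV chains in the lower row. Each point is 1 array and each bar the group mean. All 8 chains drawn lie lower on the fasted than on the fed cerebellum arrays, and fasted Col3a1 overlaps fed Col3a1 in the hypothalamus. Not drawn are Col5a3 (0.28), Col4a3 (0.36) and Col4a4 (0.06 and 0.10), whose log2 changes in the cerebellum were positive. Also not drawn are Col2a1 (-0.00), Col5a2 (-0.25), Col11a1 (-0.14) and Col11a2 (-0.20).

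Type V collagen regulates the width of type I fibrils, and its chains did not move alike. The Col5a1 probe of a RefSeq transcript gave 1.00, 1.01 and 0.983 on the fed and 1.10, 1.10 and 1.13 on the fasted hypothalamus arrays, and the rise of 0.15 ± 0.05 was not called (limma adjusted p = 0.0656). In the cerebellum the same probe gave 1.00, 1.03 and 0.962 fed and 0.838 and 0.750 fasted, a fall of 0.33 ± 0.05 (adjusted p = 0.00302), and the difference was 0.48 ± 0.07 (0.00259). A second Col5a1 probe, from an expressed sequence tag, gave 0.06, -0.07 and a difference of 0.13, with no call. Col5a2 was called in the cerebellum, where it gave 1.00, 1.01 and 0.963 fed and 0.830 and 0.829 fasted. Its change there was -0.25 ± 0.06 (adjusted p = 0.0131), against 0.02 ± 0.05 in the hypothalamus, where the ratios were 1.06, 1.00 and 0.938 fed and 1.03, 1.03 and 0.979 fasted. The Col5a2 cerebellum call was lost without either fasted cerebellum array (0.0699 and 0.0613), and its difference of 0.27 ± 0.08 (0.0404) was lost when any of 9 of the 11 arrays was left out singly (0.051 to 0.106).

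Col5a3, the third chain of type V collagen, rose in both regions. Its ratios were 1.00, 1.00 and 0.981 fed and 1.15, 1.25 and 1.22 fasted in the hypothalamus. In the cerebellum they were 1.00, 1.05 and 0.979 fed and 1.30 and 1.17 fasted. The fasted arrays lay above the fed ones in each region. Limma gave 0.28 ± 0.05 (adjusted p = 0.0134) and 0.28 ± 0.06 (0.0094), and the difference was -0.01 ± 0.08 (0.956). It was the only collagen probe called higher in both regions, as were 1.05% of all probes. The hypothalamic call was lost without the third fasted hypothalamus array (0.0504) and the cerebellar call without the first fasted cerebellum array (0.0846) or with the 75th percentile as scale (0.0698).

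The remaining fibrillar chains belong to the cartilage types. Col2a1, the main collagen of cartilage, gave 0.964, 1.00 and 1.01 on the fed and 1.18, 1.20 and 1.28 on the fasted hypothalamus arrays. It gave 1.00, 0.995 and 1.03 on the fed and 1.03 and 0.984 on the fasted cerebellum arrays, where the groups overlapped. Its rise in the hypothalamus was 0.30 ± 0.04 (limma adjusted p = 0.00481), kept without any single array. Its cerebellar change was -0.00 ± 0.05, and the difference of 0.30 ± 0.06 (0.0129) was lost without the second fasted cerebellum array (0.0517). Col11a1, a minor chain that nucleates type II fibrils, was called for the difference, 0.29 ± 0.07 (0.0195), but in neither region taken singly. Its ratios were 0.971, 1.02 and 1.00 fed and 1.12, 1.16 and 1.05 fasted in the hypothalamus, and 1.00, 1.03 and 0.997 fed and 0.902 and 0.928 fasted in the cerebellum. The fasted arrays thus lay above the fed arrays in the first region and below them in the second. The Col11a1 call was lost without the first fasted cerebellum array (0.0748). Col11a2 had a change of 0.06 in the hypothalamus and -0.20 in the cerebellum, with no call.

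The basement membrane collagens comprised 7 probes of the 6 type IV genes. In the fasted hypothalamus 3 of the 7 probes rose and 0 fell by limma (42.9% and 0%, against 6.34% and 7.89% of all probes). In the fasted cerebellum 3 fell and 0 rose (42.9% and 0%, against 11.2% and 9.66%). At an unadjusted p under 0.05, 4 were higher and 0 lower in the hypothalamus, where 15.6% and 16.5% of all probes were. In the cerebellum 1 was higher and 3 lower at that threshold, as were 5657 and 5967 of all 34999 probes. The difference was positive for 4 (57.1%, against 8.66% of all probes) and negative for 0. At an unadjusted p under 0.05 it was positive for 4 and negative for 1. The median change was 0.20 in the hypothalamus and -0.12 in the cerebellum, and the median difference was 0.44. Over all probes these were 0.00, 0.01 and 0.01.

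Col4a1 and Col4a2 encode the chains of the type IV collagen found in nearly all basement membranes, those of brain vessels included. Col4a1 ratios were 1.05, 1.00 and 0.980 fed and 1.21, 1.17 and 1.19 fasted in the hypothalamus, and 1.00, 1.06 and 0.969 fed and 0.696 and 0.727 fasted in the cerebellum. Col4a2 ratios were 1.07, 1.00 and 0.955 fed and 1.15, 1.08 and 1.12 fasted in the hypothalamus, and 1.00, 1.02 and 0.960 fed and 0.809 and 0.811 fasted in the cerebellum. For both chains the fasted arrays lay above the fed arrays in the hypothalamus and below them in the cerebellum. Col4a1 rose by 0.24 ± 0.05 (limma adjusted p = 0.0157) in the hypothalamus and fell by 0.50 ± 0.05 (0.000257) in the cerebellum, with a difference of 0.74 ± 0.07 (0.000262). Col4a2 had a change of 0.15 ± 0.05 in the hypothalamus, which was not called (0.0818), and fell by 0.30 ± 0.06 (0.00658) in the cerebellum, with a difference of 0.44 ± 0.08 (0.00484). The Col4a1 call in the hypothalamus was lost without the second fed array (0.0563), without the third fasted array (0.0542) or with the 75th percentile as scale (0.057).

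Col4a5 and Col4a6, neighbours on the X chromosome whose chains combine in the basement membranes of smooth muscle and some epithelia, were also called. Col4a5 gave 0.973, 1.00 and 1.08 on the fed and 1.29, 1.38 and 1.24 on the fasted hypothalamus arrays, a rise of 0.36 ± 0.05 (1.28-fold, limma adjusted p = 0.00546) and the largest called rise among the collagen probes in the hypothalamus. In the cerebellum it gave 1.00, 0.983 and 1.02 fed and 0.917 and 0.927 fasted, and the change of -0.12 ± 0.06 was not called (0.2). The difference was 0.48 ± 0.08 (0.00422). Col4a6 gave 1.13, 1.00 and 0.997 fed and 1.30, 1.33 and 1.17 fasted in the hypothalamus, and 1.00, 1.06 and 0.924 fed and 0.711 and 0.681 fasted in the cerebellum. The fed and fasted arrays of Col4a6 did not overlap in either region. It rose by 0.28 ± 0.07 (0.0388) and fell by 0.51 ± 0.08 (0.00276), with a difference of 0.80 ± 0.11 (0.0018). The hypothalamic Col4a6 call was lost without any of 7 of the 11 arrays (0.0523 to 0.116) and with the 75th percentile as scale (0.0861).

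Col4a3 and Col4a4, which join Col4a5 in the specialised basement membranes of kidney, lung, eye and inner ear, had no called probe in either region. Col4a3 changed by -0.03 ± 0.11 in the hypothalamus and 0.36 ± 0.12 in the cerebellum (limma adjusted p = 0.0749), opposite in sign to Col4a1. The Col4a4 probes gave 0.20 and 0.01 in the hypothalamus and 0.06 and 0.10 in the cerebellum.

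The other 26 collagen genes had 36 probes. In the hypothalamus 8 rose and 2 fell (22.2% and 5.56%, against 6.34% and 7.89% of all probes). In the cerebellum 1 rose and 3 fell (2.78% and 8.33%, against 9.66% and 11.2%). The difference was positive for 6 and negative for 3 (16.7% and 8.33%, against 8.66% and 9.01%). Whether these shares differ from those of the fibrillar and type IV probes was not tested. Their median change was 0.05 in the hypothalamus and -0.00 in the cerebellum, and their median difference was 0.11.

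**Figure D2:**
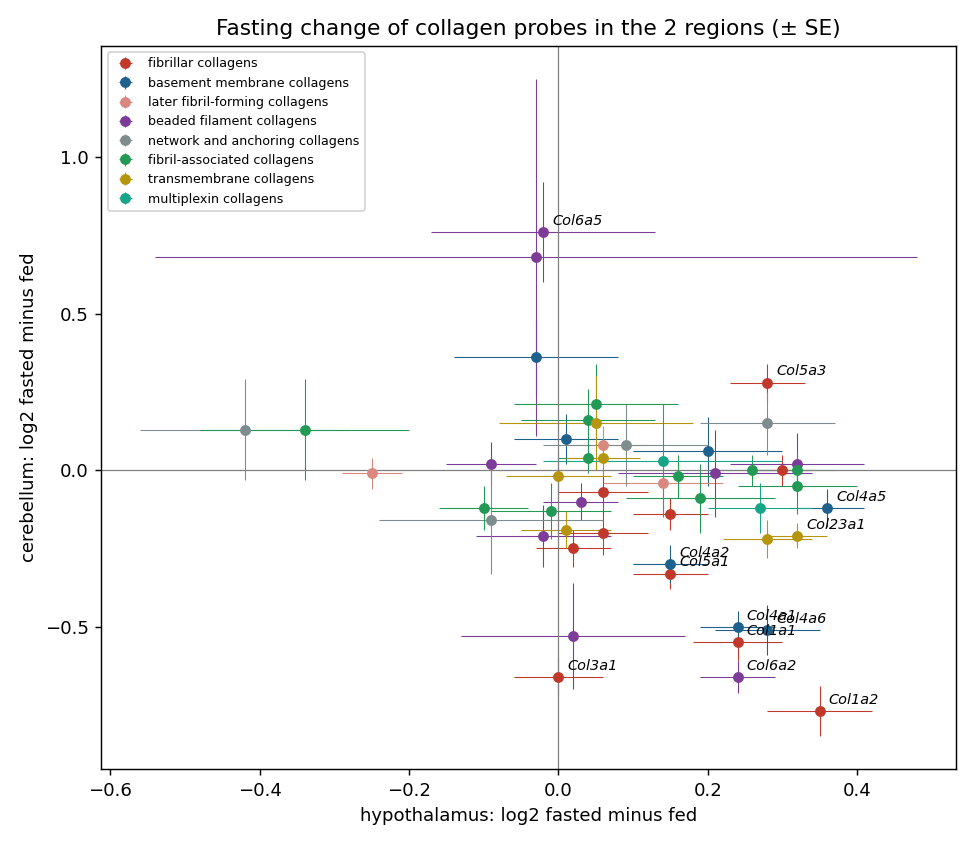
Fasting change in the hypothalamus (horizontal axis) against that in the cerebellum (vertical axis), log2 fasted minus fed, with bars for ± SE, coloured by collagen class. All 53 probes are drawn except the Col6a2 probe from an expressed sequence tag, whose change of -1.99 in the hypothalamus lies outside the axes. Col1a1, Col1a2, Col4a1, Col4a6 and the RefSeq probe of Col6a2 lie at the lower right.

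Type VI collagen forms beaded filaments around cells and next to basement membranes, and its 6 genes had 10 probes. Col6a2, one of its core chains, had 2 probes that went opposite ways. The probe of the RefSeq transcript gave 1.07, 1.00 and 0.969 on the fed and 1.20, 1.19 and 1.18 on the fasted hypothalamus arrays, and 1.04, 0.980 and 1.00 on the fed and 0.628 and 0.646 on the fasted cerebellum arrays. The fasted groups of this probe were tight and clear of the fed arrays in both regions. It rose by 0.24 ± 0.05 (limma adjusted p = 0.0146) and fell by 0.66 ± 0.05 (1.58-fold, 5.5e-05), with a difference of 0.90 ± 0.07 (0.000102). Its hypothalamic call was lost without the second fed array (0.054) and with the 75th percentile as scale (0.0591).

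The Col6a2 probe from an expressed sequence tag gave 1.19, 1.00 and 0.959 fed and 0.169, 0.418 and 0.260 fasted in the hypothalamus. In the cerebellum it gave 1.31, 1.00 and 0.724 fed and 2.50 and 1.26 fasted. Its arrays were far apart, with a residual SD of 0.50 on the log2 scale, and the cerebellum groups overlapped. Its change was -1.99 ± 0.37 (limma adjusted p = 0.0118) in the hypothalamus and 0.85 ± 0.41 (0.186) in the cerebellum, and its difference was -2.84 ± 0.55 (0.00848). A direction for the gene Col6a2 therefore depends on the probe.

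The other beaded filament chains gave fewer calls. Col6a1, the second core chain, gave 1.01, 1.00 and 0.914 fed and 0.662 and 0.689 fasted in the cerebellum, and its change of -0.53 ± 0.17 was not called (limma adjusted p = 0.0587). On the fasted hypothalamus arrays Col6a1 ranged from 0.748 to 1.23, on both sides of the fed arrays. Col6a5 had a probe that rose in the hypothalamus, 0.32 ± 0.09 (0.0449), with 0.945, 1.00 and 1.15 fed and 1.26, 1.19 and 1.39 fasted. That call was lost without any of 10 of the 11 arrays (0.0518 to 0.138). The other Col6a5 probe rose in the cerebellum, with 1.00, 1.03 and 0.739 fed and 1.83 and 1.31 fasted. Its change there was 0.76 ± 0.16 (0.0106), lost without the first fasted cerebellum array (0.0846), and its difference was -0.78 ± 0.22 (0.0388), lost without any of 8 arrays (0.0504 to 0.131). Col6a3, Col6a4 and Col6a6 had no called probe.

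Among the transmembrane collagens, Col23a1 stood out because both of its probes were called in each comparison. Col23a1 encodes a short collagen anchored in the cell membrane. The probe of a cDNA gave 0.988, 1.00 and 1.04 fed and 1.23, 1.28 and 1.25 fasted in the hypothalamus, and 0.990, 1.00 and 1.00 fed and 0.859 and 0.864 fasted in the cerebellum. The RefSeq probe gave 1.00, 1.00 and 0.922 fed and 1.19, 1.21 and 1.14 fasted in the hypothalamus, and 1.00, 1.02 and 0.901 fed and 0.830 and 0.841 fasted in the cerebellum. For both probes every fasted array lay above the fed arrays in the hypothalamus and below them in the cerebellum. The 2 probes rose by 0.32 ± 0.04 (limma adjusted p = 0.00177) and 0.28 ± 0.06 (0.0172), and fell by 0.21 ± 0.04 (0.00606) and 0.22 ± 0.06 (0.0429). Their differences were 0.53 ± 0.05 (0.00036) and 0.49 ± 0.09 (0.00511). Of the RefSeq probe, the hypothalamic call was lost without the second fasted hypothalamus array (0.0598) or with the 75th percentile as scale (0.0578), and the cerebellar call without any of 9 arrays (0.0506 to 0.172). Col13a1, Col17a1 and Col25a1 had no called probe.

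The fibril-associated collagens, which decorate the surface of fibrils, gave 3 rises and 0 falls among 11 probes in the hypothalamus and 0 calls in the cerebellum by limma (0 also at an unadjusted p under 0.05). The rises were 27.3%, against 6.34% of all probes, and 20.9% of all probes were called in the cerebellum. Col19a1, which is made by subsets of neurons, rose by 0.32 on both of its probes. The probe from an expressed sequence tag gave 0.970, 1.00 and 1.07 fed and 1.31, 1.25 and 1.23 fasted in the hypothalamus (SE 0.05, adjusted p = 0.00793). In the cerebellum it gave 1.03, 0.947 and 1.00 fed and 1.01 and 0.968 fasted, and the groups overlapped. The RefSeq probe gave 0.939, 1.04 and 1.00 fed and 1.23, 1.30 and 1.20 fasted in the hypothalamus (SE 0.08, 0.0289), and 1.00, 1.04 and 0.896 fed and 1.02 and 0.871 fasted in the cerebellum. The fasted hypothalamus arrays thus lay above the fed ones on both probes. The difference was called on the first probe, 0.32 ± 0.08 (0.0232), and not on the second, 0.38 ± 0.12 (0.0578). The RefSeq probe lost its hypothalamic call without any single hypothalamus array (0.0507 to 0.0914). The first probe lost its difference without the second fed hypothalamus array (0.0546), the first fed cerebellum array (0.056) or the second fasted cerebellum array (0.0808).

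Col20a1, another fibril-associated collagen, gave 1.00, 1.06 and 0.970 on the fed and 1.19, 1.21 and 1.22 on the fasted hypothalamus arrays, a rise of 0.26 ± 0.05 (limma adjusted p = 0.00977). Its cerebellum ratios were 1.04, 1.00 and 0.998 fed and 0.976 and 1.04 fasted, with a change of -0.00 ± 0.05. The difference of 0.26 ± 0.07 (0.0298) was lost without any of 7 arrays (0.0503 to 0.117), and the hypothalamic call with the 75th percentile as scale (0.0635). Col9a1, Col9a3, Col14a1, Col16a1 and Col22a1 had no called probe. Neither had Col26a1, which was counted in this list by the grouping used here.

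Col18a1, a multiplexin collagen of vascular and epithelial basement membranes and the precursor of endostatin, rose in the hypothalamus. Its ratios were 0.974, 1.05 and 1.00 fed and 1.35, 1.12 and 1.19 fasted there, and 1.04, 1.00 and 0.988 fed and 0.935 and 0.920 fasted in the cerebellum. The groups did not overlap in either region. The hypothalamic change was 0.27 ± 0.07 (limma adjusted p = 0.0336), the cerebellar change -0.12 ± 0.08 (0.304) and the difference 0.39 ± 0.10 (0.0299). Both calls were each lost without any of 7 arrays (0.0502 to 0.098 for the hypothalamus and 0.0504 to 0.0841 for the difference), and the first also with the 75th percentile as scale (0.167). Col15a1, the other multiplexin, had no call.

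Of the later fibril-forming collagens, Col27a1 had a cDNA probe with 1.02, 1.00 and 0.962 fed and 0.847, 0.828 and 0.835 fasted in the hypothalamus. All 3 fasted arrays lay below the fed arrays, and the fall of 0.25 ± 0.04 (limma adjusted p = 0.00969) was kept without any single array. In the cerebellum it gave 0.955, 1.00 and 1.03 fed and 0.966 and 1.01 fasted. Its difference, -0.24 ± 0.07 (0.0334), was lost without any of 9 arrays (0.0531 to 0.116) and with the 75th percentile as scale (0.0521). The RefSeq probe of Col27a1 gave 0.14 ± 0.08 in the hypothalamus, with the opposite sign and no call. Col24a1 had no call. Neither had Col7a1, Col8a1, Col8a2 and Col10a1, the network and anchoring collagens, which gave 0 calls by limma in every comparison. At an unadjusted p under 0.05 they gave 1 probe higher and 1 lower in the hypothalamus, 0 in the cerebellum and 1 negative difference.

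**Figure D3:**
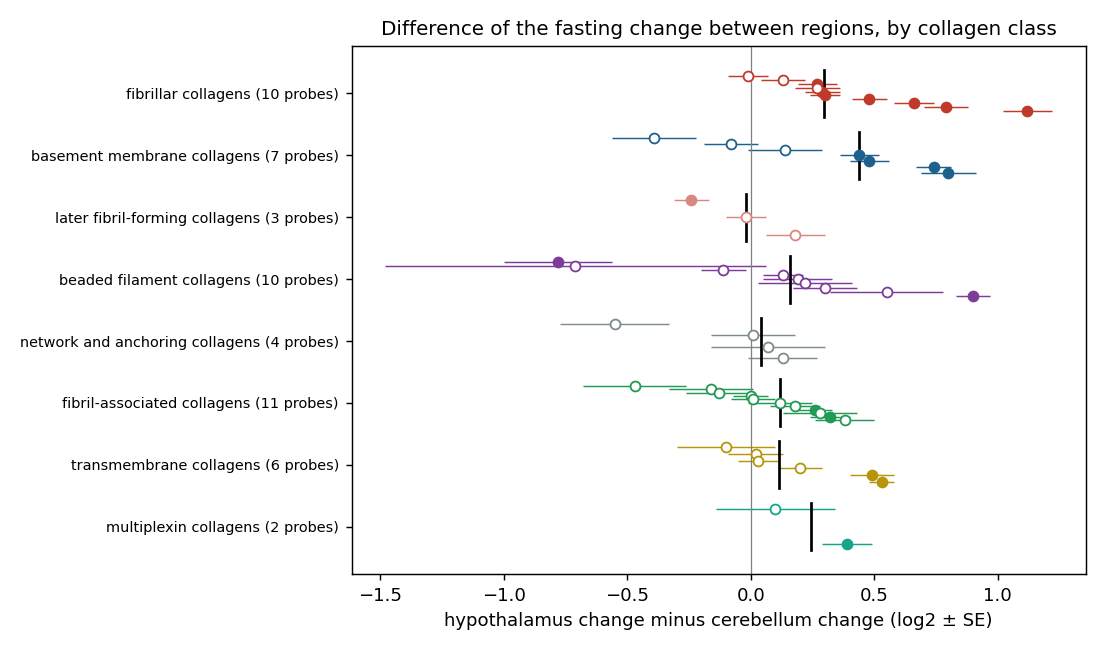
Difference of the fasting change, hypothalamus minus cerebellum, log2 ± SE (horizontal axis), for each collagen probe by class; filled points were called at an adjusted p under 0.05 and vertical bars are class medians. The Col6a2 probe with a difference of -2.84 is left out of the drawing but counted in its class median. The 7 called fibrillar and 4 called type IV probes all lie right of 0.

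Collagen probes called higher in the hypothalamus and lower in the cerebellum numbered 7, from 6 genes: Col1a1, Col1a2, Col4a1, Col4a6, Col6a2 and Col23a1. Only the RefSeq probe of Col6a2 was among them. The other Col6a2 probe changed by -1.99 in the hypothalamus, called lower, and by 0.85 in the cerebellum, not called. Over all probes 222 (0.634%) had this pattern. The 2 changes come from separate arrays and separate pools.

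Where a gene had 2 probes, their values could differ in sign. Among the 12 such genes, the 2 probes had opposite signs for 4 genes in the hypothalamus, for 4 in the cerebellum and for 9 in the difference. Neither probe was called for 7, 8 and 6 of the 12 genes. Both probes were called in opposite directions only for Col6a2, in the hypothalamus and in the difference. Both probes were called in the same direction for Col19a1 and Col23a1 in the hypothalamus and for Col23a1 in the cerebellum and in the difference. The median gap between the 2 probes of a gene was 0.11, 0.12 and 0.30 on the log2 scale. Split by the sequence behind the probe, the 34 probes of RefSeq transcripts gave 11 rises and 0 falls in the hypothalamus, 1 rise and 10 falls in the cerebellum, and 14 positive and 0 negative differences. The 19 probes of expressed sequence tags and cDNAs gave 4 rises and 2 falls, 1 rise and 1 fall, and 3 positive and 3 negative differences. Over all probes 6.34% rose and 7.89% fell in the hypothalamus, and 9.66% rose and 11.2% fell in the cerebellum. The difference was called positive for 8.66% and negative for 9.01% of all probes.

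Collagen chains are modified and folded in the endoplasmic reticulum by a set of dedicated enzymes and chaperones, for which 22 probes of 17 genes were examined. In the hypothalamus 0 rose and 4 fell (0% and 18.2%, against 6.34% and 7.89% of all probes). In the cerebellum 3 rose and 8 fell (13.6% and 36.4%, against 9.66% and 11.2%). The difference was positive for 5 and negative for 1 (22.7% and 4.55%, against 8.66% and 9.01%). Serpinh1, the collagen chaperone HSP47, fell in both regions on both of its probes. The changes were -0.45 ± 0.05 and -0.30 ± 0.05 in the hypothalamus (limma adjusted p = 0.00195 and 0.0103) and -0.50 ± 0.06 and -0.58 ± 0.06 in the cerebellum (0.0004 and 0.00023). In the hypothalamus this direction was opposite to that of Col1a1 and Col1a2. P4ha1, a catalytic subunit of prolyl hydroxylase, fell by 0.20 ± 0.06 (0.0449) in the hypothalamus and by 0.41 ± 0.06 (0.00186) in the cerebellum, and P4ha2, a related subunit, fell by 0.17 ± 0.05 (0.0446) in the hypothalamus. Each of those hypothalamic calls was lost without any of 9 arrays (0.0546 to 0.132 for P4ha1 and 0.0561 to 0.133 for P4ha2). Mia3, which helps load procollagen for export, fell in the cerebellum on probes with changes of -0.78 ± 0.10 (0.000559) and -0.61 ± 0.08 (0.000636). Another Mia3 probe rose there by 0.26 ± 0.08 (0.0496) and lost that call without any of 9 arrays (0.0509 to 0.206).

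Of 16 probes of 13 genes that trim procollagen and cross-link fibrils, 0 were called in the hypothalamus by limma. At an unadjusted p under 0.05, 2 were higher and 0 lower there, where 15.6% of all probes were higher and 16.5% lower. In the cerebellum 0 rose and 5 fell (31.2%, against 11.2% of all probes called lower). The falls were in Pxdn, the peroxidase that cross-links type IV collagen (-0.51 ± 0.13 and -0.28 ± 0.06, adjusted p = 0.0265 and 0.0118), Tll1, a procollagen protease (-0.33 ± 0.07, 0.0117), and the lysyl oxidase relatives Loxl1 (-0.25 ± 0.07, 0.0324) and Loxl3 (-0.23 ± 0.06, 0.0301). All 5 calls were lost without the first fasted cerebellum array (0.0579, 0.0831, 0.0756, 0.145 and 0.212). The first Pxdn probe lost its call without any of 4 arrays (0.0579 to 0.146), Loxl1 without any of 6 (0.0503 to 0.145) and Loxl3 without any of 4 (0.0513 to 0.212). The difference was called for Pcolce, an enhancer of procollagen cleavage (0.45 ± 0.11, 0.0246), and for a second Loxl1 probe (0.25 ± 0.07, 0.041). Pcolce lost the call without any of 3 arrays (0.0519 to 0.0895) and Loxl1 without any of 8 (0.0606 to 0.133), the second fasted cerebellum array being among both.

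Of 12 probes of 11 genes of collagen breakdown and its inhibitors, 3 rose and 1 fell in the hypothalamus. These were 25% and 8.33%, against 6.34% and 7.89% of all probes. In the cerebellum 0 rose and 1 fell (8.33%, against 11.2% of all probes called lower). Those that rose were the neutrophil collagenase Mmp8 (0.43 ± 0.11, limma adjusted p = 0.0364), the inhibitor Timp1 (0.42 ± 0.10, 0.0281) and the gelatinase Mmp9 (0.18 ± 0.05, 0.0489). Mmp14, a membrane-bound collagenase, fell by 0.27 ± 0.06 (0.0221) in the hypothalamus and by 0.36 ± 0.07 (0.00608) in the cerebellum, the only call of the list there. Each of these 4 hypothalamic calls was lost without the second fed hypothalamus array (0.0837, 0.0716, 0.123 and 0.0717 in the order named). Counting every array left out singly, Mmp8 lost its call without 5 arrays (up to 0.117), Timp1 without 4 (up to 0.0732), Mmp9 without 10 (up to 0.125) and Mmp14 without 4 (up to 0.0717). The Mmp14 call in the cerebellum was lost without the first fasted array there (0.0586).

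Among 9 probes of 8 collagen receptors, Itga11, the alpha 11 integrin chain, rose in the hypothalamus (0.27 ± 0.06, limma adjusted p = 0.0205). Higher calls there were 11.1% of the list, against 6.34% of all probes. In the cerebellum 22.2% were called higher and 11.1% lower, against 9.66% and 11.2%. In the cerebellum Ddr2, a collagen-binding receptor kinase, rose by 0.54 ± 0.13 (0.0182), a probe of the shared integrin chain Itgb1 rose by 0.23 ± 0.07 (0.0367), and Itga10 fell by 0.37 ± 0.06 (0.00294). The Itga11 call was lost without the first or the second fed or the third fasted hypothalamus array (0.0547, 0.0699 and 0.0736). The Ddr2 call was lost without the third fed or the first fasted cerebellum array (0.052 and 0.114), and the Itgb1 call without any of 6 arrays (0.0511 to 0.212). The difference was positive for Itga10 (0.34 ± 0.08, 0.0215) and negative for Adgrg1, a receptor of type III collagen in the developing brain (-0.48 ± 0.13, 0.0389), and the first was lost without the second fasted hypothalamus array (0.0508) or the first fasted cerebellum array (0.0849), the second without any of 8 arrays (0.0542 to 0.115).

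The laminins, nidogens and proteoglycans that share basement membranes with type IV collagen were represented by 18 probes of 14 genes. In each region 1 fell (5.56%) and 0 rose, against 7.89% of all probes called lower in the hypothalamus and 11.2% in the cerebellum. Nid1, which links laminin to type IV collagen, fell by 0.33 ± 0.07 (limma adjusted p = 0.0206) in the hypothalamus, a call lost without any of 4 hypothalamus arrays (0.054 to 0.0693). Its relative Nid2 fell by 0.49 ± 0.07 (0.00121) in the cerebellum, with a difference of 0.55 ± 0.09 (0.00427). Lama1, a laminin chain, had a difference of 0.29 ± 0.08 (0.03), lost without any of 6 arrays (0.0513 to 0.116).

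TGF-beta signalling is a main inducer of fibrillar collagen transcription, and 16 probes of 14 of its genes were examined. In the hypothalamus 1 rose and 1 fell (6.25% each, against 6.34% and 7.89% of all probes). In the cerebellum 0 rose and 6 fell (0% and 37.5%, against 9.66% and 11.2%). At an unadjusted p under 0.05, 0 were higher and 9 lower there. Ccn2, the connective tissue growth factor, rose by 0.45 ± 0.04 (limma adjusted p = 0.00101) in the hypothalamus and fell by 0.21 ± 0.05 (0.0145) in the cerebellum, a fall lost without the first fasted cerebellum array (0.122). Tgfb3, a ligand, fell by 0.31 ± 0.06 (0.0145) in the hypothalamus, lost without the second fed array (0.0547) or the second fasted array (0.0511). The largest falls in the cerebellum were in Smad4, the shared signal transducer (-0.96 ± 0.07, 4.48e-05), Tgfbi, a TGF-beta-induced matrix protein (-0.81 ± 0.09, 0.000248), Smad3 (-0.59 ± 0.15, 0.0256) and the co-receptor Tgfbr3 (-0.56 ± 0.06, 0.000234). The Smad3 call was lost without the first or the second fed or the first fasted cerebellum array (0.0792, 0.0659 and 0.169).

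Markers of the cell types that make collagen, or that can be carried along in dissection, were read beside these values. The 15 genes of meninges and fibroblasts, with 17 probes, gave 7 rises (41.2%, against 6.34% of all probes) and 0 falls in the hypothalamus. In the cerebellum they gave 0 rises and 7 falls (41.2%, against 11.2%). They gave 9 positive (52.9%, against 8.66%) and 0 negative differences. Their mean log2 ratio lay between -0.15 and 0.03 on the fed and between 0.15 and 0.22 on the fasted hypothalamus arrays. It lay between -0.06 and 0.03 on the fed cerebellum arrays and at -0.31 and -0.29 on the fasted ones. The mean of the fibrillar probes ran between -0.06 and 0.01 fed and 0.12 and 0.16 fasted in the hypothalamus, and between -0.06 and 0.01 fed and at -0.27 and -0.30 fasted in the cerebellum. Both lists were therefore high on the fasted hypothalamus arrays and low on the fasted cerebellum arrays.

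Among these markers, Ogn and Fmod, small leucine-rich proteoglycans that bind collagen fibrils, moved the furthest in the cerebellum. Ogn changed by 0.49 ± 0.05 in the hypothalamus (limma adjusted p = 0.00143) and -1.38 ± 0.06 in the cerebellum (5.49e-06), with a difference of 1.87 ± 0.08 (3.27e-05). Fmod changed by 0.37 ± 0.05 (0.00534) and -0.91 ± 0.06 (2.6e-05), with a difference of 1.28 ± 0.08 (6.07e-05). Aldh1a2, the retinoic acid synthase of the meninges, changed by 0.35 ± 0.05 (0.00353) and -0.54 ± 0.05 (0.000143). Bgn, biglycan, fell by 0.56 ± 0.05 (9.9e-05) in the cerebellum. Pdgfra, which also marks oligodendrocyte precursors, rose by 0.55 ± 0.08 (0.00541) in the hypothalamus. The part of meningeal or fibroblast tissue in the collagen changes was not tested.

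Vessel cells gave a less uniform picture. Of 12 pericyte and smooth muscle probes (11 genes), 4 rose and 0 fell in the hypothalamus (33.3% higher, against 6.34% of all probes). In the cerebellum 1 rose and 1 fell (8.33% each, against 9.66% and 11.2%). The contractile genes Acta2 (0.30 ± 0.05, limma adjusted p = 0.00569) and Myh11 (0.25 ± 0.05, 0.0189), the receptor Pdgfrb (0.24 ± 0.07, 0.0482) and Tagln (0.15 ± 0.04, 0.0444) rose in the hypothalamus. Rgs5, a pericyte marker, rose by 0.59 ± 0.10 (0.00437) and Anpep fell by 0.20 ± 0.06 (0.045) in the cerebellum. The Myh11 call was lost without any of 3 hypothalamus arrays (0.0589 to 0.0642), the Pdgfrb call without any of 10 arrays (0.0544 to 0.131), the Tagln call without any of the 11 (0.0525 to 0.137) and the Anpep call without any of 8 (0.0522 to 0.228).

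Of 14 endothelial probes (13 genes), 0 were called in the hypothalamus by limma. At an unadjusted p under 0.05, 3 were higher and 1 lower there, where 15.6% of all probes were higher and 16.5% lower. In the cerebellum 1 rose and 4 fell (7.14% and 28.6%, against 9.66% and 11.2% of all probes). The falls were in Pecam1 (-0.86 ± 0.12, adjusted p = 0.00135), Tek (-0.49 ± 0.05, 0.000218), Tie1 (-0.39 ± 0.04, 0.000203) and Kdr (-0.32 ± 0.07, 0.00887), which encode an adhesion molecule and receptors of endothelial cells. The tight junction gene Cldn5 rose by 0.26 ± 0.05 (0.00648). The Kdr and Cldn5 calls were lost without the second fasted cerebellum array (0.0684 and 0.0504). The part of vessel cells in the type IV changes was not tested.

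**Figure D4:**
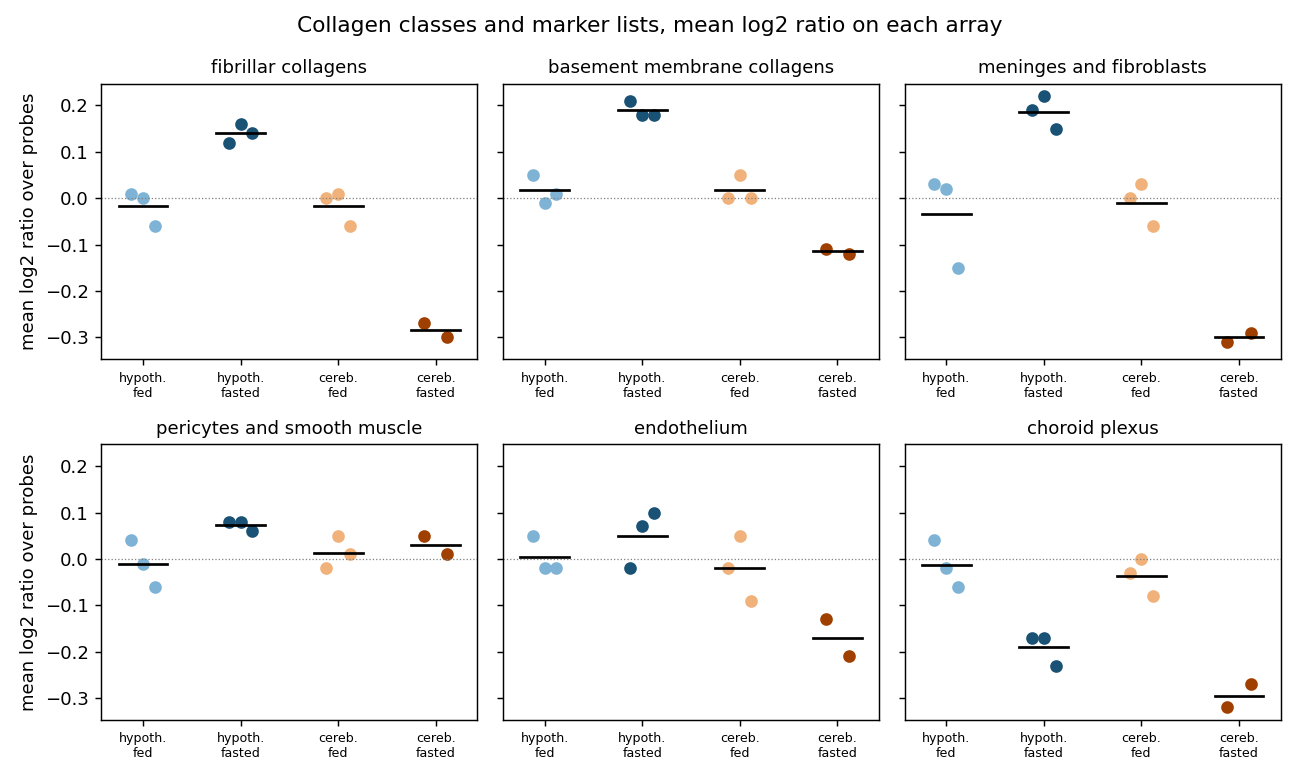
Mean log2 array-scaled ratio over the probes of each list (vertical axis) on every array, for fibrillar and type IV collagens and for 4 marker lists. Each point is 1 array and each bar the group mean. The meninges and fibroblast list lies between 0.15 and 0.22 on the fasted hypothalamus arrays and at -0.31 and -0.29 on the fasted cerebellum arrays, as the fibrillar list lies between 0.12 and 0.16 and at -0.27 and -0.30.

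Other tissues that dissection could include did not follow one pattern. Of 7 choroid plexus genes, 2 fell in the hypothalamus and 3 in the cerebellum, and 0 rose in either. The falls were 28.6% and 42.9%, against 7.89% and 11.2% of all probes. The thyroid hormone carrier Ttr fell by 0.81 ± 0.06 (limma adjusted p = 0.000324) in the hypothalamus, Otx2 by 0.36 ± 0.05 (0.00541) in the hypothalamus and by 0.31 ± 0.06 (0.00648) in the cerebellum, and Kl by 0.65 ± 0.07 (0.000316) in the cerebellum. The cerebellar Otx2 call was lost without the first fasted array (0.0611). Of 8 bone and cartilage probes, 0 were called in the hypothalamus by limma. At an unadjusted p under 0.05, 1 was higher and 0 lower there, where 15.6% of all probes were higher and 16.5% lower. Dmp1 fell by 0.64 ± 0.12 (limma adjusted p = 0.00467) in the cerebellum, the only call there (12.5%, against 11.2% of all probes called lower). Of 7 skeletal muscle probes, Acta1 rose by 0.46 ± 0.07 (0.00759) in the hypothalamus (14.3% higher, against 6.34% of all probes). In the cerebellum 0 were called by limma (1 higher at an unadjusted p under 0.05), where 20.9% of all probes were called. Among 4 blood cell genes, 1 rose and 2 fell in the hypothalamus (25% and 50%, against 6.34% and 7.89% of all probes). In the cerebellum 2 rose and 0 fell (50% higher, against 9.66%). Alas2, the haem synthesis enzyme of red cells, rose by 0.70 ± 0.05 (0.000271) in the hypothalamus and by 0.34 ± 0.05 (0.00276) in the cerebellum. The neutrophil gene S100a9 fell by 0.39 ± 0.09 (0.0204) in the hypothalamus, lost without the second or the third fasted array there (0.05 and 0.0736). It rose by 0.31 ± 0.10 (0.0483) in the cerebellum, lost without any of 8 arrays (0.0623 to 0.223). S100a8 was also called lower in the hypothalamus, lost without the second fed, the second fasted or the third fasted array there (limma adjusted p = 0.0623, 0.0642 and 0.0579). The part of these tissues in the collagen changes was not tested.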

How the data were processed

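The deposited values are ratios: per the file itself, the authors divided each probe by the median of the fed arrays of its region (fed median of 1 for all 34999 probes, tolerance 1e-06). A linear scale was inferred from those values. For the image software, the background correction and any scaling before deposit, the step is not given in the sources used here. Probes near background could not be recognised, and the number of arrays limits the precision. Ratios were divided by the array median (0.964 to 1), floored at 0.1 and put on the log2 scale; 0 collagen ratios were under the floor. Limma 3.58.1 (R 4.3.3) fitted 4 group means over 11 arrays (7 residual and 1.82 prior degrees of freedom), with two-sided moderated tests and Benjamini-Hochberg adjustment over all probes. Arrays of 1 pool had a median SD of 0.06 to 0.09 on the log2 scale. The fit was tested on simulated data with independent noise on each array, without the division by the fed median and without differences between pools. Per-array values were given for Col1a1, Col1a2, Col3a1, Col4a1 and Col4a2 and for up to 10 further called probes per comparison, and up to 4 called probes were named in each list. The per-array values of Col11a1, Col6a1, Col20a1 and Col27a1, outside that rule, were chosen after they were seen. Genes were named from the platform annotation, with promoters from RefSeq (GRCm38.p6). The collagen genes, classes and lists were chosen with earlier results of these data known. Alternatives were other scalings, floors, variance priors, array subsets, a replicate block and leaving out each array.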

Additional observations from a re-analysis of the deposited data

Results flagged for a closer look

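For 20 collagen probes the fasting change differed between the regions by a test of the difference itself, the interaction contrast of the limma fit with Benjamini-Hochberg adjustment. Values are hypothalamus change minus cerebellum change on the log2 scale. Among fibrillar probes the differences were 1.12 for Col1a2, 0.79 for Col1a1, 0.66 for Col3a1, 0.48 for Col5a1, 0.30 for Col2a1, 0.29 for Col11a1 and 0.27 for Col5a2. Among type IV probes they were 0.80 for Col4a6, 0.74 for Col4a1, 0.48 for Col4a5 and 0.44 for Col4a2. Among the others, Col23a1 gave 0.53 and 0.49 on its 2 probes, Col18a1 0.39, Col19a1 0.32 and Col20a1 0.26. Negative differences were found for Col6a5 (-0.78) and Col27a1 (-0.24). Col6a2 appeared with both signs, 0.90 on its RefSeq probe and -2.84 on the other. Of the 20 calls, 12 were kept without any single array. Outlying arrays could not be tested in groups of 2 and 3 arrays.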

How the results depend on the processing

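The 15 collagen probes called higher in the hypothalamus became 6 with the 75th percentile as scale (2.04% of all probes), and the 11 called lower in the cerebellum became 19 (26.7%). Both quantile normalizations left 0 higher in the hypothalamus (0.0543% of all probes over all arrays and 0.0286% within regions), 0 lower in the cerebellum (1.1% and 1%) and 0 positive differences in place of 17 (0.346% and 0.237%). Among the nearest were Col3a1 in the cerebellum, -0.42 with an adjusted p of 0.0511, and the Col1a2 difference, 0.81 with 0.0666. On the deposited fed arrays 24.1% to 45.3% of ratios were exactly 1 and the interquartile range of log2 ratios was 0.02 to 0.10, against 0% and 0.24 to 0.31 on fasted arrays. The cause of the lost calls was not tested. A floor of 0.01 and leaving out 534 probes with extreme ratios kept all 3 counts, and a variance prior with trend gave 14, 11 and 17. Values without array scaling gave 11, 13 and 16. Of all probes, 5.88% were called higher in the hypothalamus with the trend and 3.93% without array scaling. Of the 17 hypothalamic collagen calls in either direction, 13 were kept without array scaling, the losses being Col1a1 (0.0501), Col4a6 (0.0634), Col6a5 (0.0654) and Col18a1 (0.0662).

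Without 1 array, 8 to 14 collagen probes were called higher in the hypothalamus, where 2.2% to 6.73% of all probes were. The count was 8 without the second fed array (2.45% of all probes) and 9 without the second fasted array (2.75%). With all arrays 6.34% of all probes were called higher there. In the cerebellum 9 to 12 collagen probes were called lower, and 13 to 19 had a positive difference. The calls kept without any single array were 7 of 17 in the hypothalamus, 9 of 13 in the cerebellum and 12 of 20 for the difference. The 2 cerebellar rises became 0 without the first fasted cerebellum array. Of the calls in the pathway and marker lists, 12 of 29, 25 of 47 and 24 of 42 were kept without any single array. Quantile normalization over all arrays kept 1, 3 and 2 of them, and the 75th percentile 20, 41 and 37. No call changed direction in any setting tried.

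For each probe, the group mean was subtracted from the log2 value of each array, and these deviations were correlated over all probes. Deviations of same-numbered fed and fasted arrays correlated by 0.0737, 0.0953 and 0.0717 in the hypothalamus, each best with its own number. Those of arrays with other numbers correlated there by -0.0877 to 0.00594. In the cerebellum the deviations of same-numbered arrays correlated by 0.0404 and -0.0201. The 2 fasted cerebellum arrays deviate from their mean by equal and opposite amounts, so that region cannot show a pairing. Whether the numbers pair the arrays was not settled. A replicate block over all arrays gave 16 higher in the hypothalamus (7.3% of all probes), 12 lower in the cerebellum and 18 positive differences. It lost the negative differences of Col27a1 (limma adjusted p = 0.0621) and Col6a5 (0.0757). A replicate block on the hypothalamus arrays alone left 0 collagen calls by limma, where 0.0171% of all probes were called higher, and on the cerebellum arrays alone 0, where 0% of all probes were called lower. At an unadjusted p under 0.05 these fits gave 21 collagen probes higher in the hypothalamus (15.1% of all probes) and 13 lower in the cerebellum (13% of all probes). Those subsets without the block gave 10, where 2.37% of all probes were called higher in the hypothalamus, and 11.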
